A study of Homo sapiens with 62 samples.

Results

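HMOX1, NQO1, GCLM, GCLC, SRXN1, TXNRD1, SLC7A11, OSGIN1, FTH1 and FTL are 10 genes that the transcription factor NRF2 is known to switch on under oxidative or electrophilic stress. They were taken by gene symbol from the table of expression levels, and are 10 of its 37415 genes. HMOX1 encodes heme oxygenase 1, which breaks heme down to biliverdin, carbon monoxide and free iron. FTH1 and FTL encode the heavy and light chains of ferritin, the shell that stores iron. SLC7A11 encodes the transport subunit of the cystine and glutamate exchanger, which brings in cystine for glutathione. GCLC and GCLM encode the catalytic and modifier subunits of glutamate-cysteine ligase, the rate-limiting enzyme of glutathione synthesis. TXNRD1 encodes the cytosolic thioredoxin reductase, SRXN1 encodes sulfiredoxin, which repairs over-oxidised peroxiredoxins, and NQO1 encodes a quinone reductase. OSGIN1 encodes a growth inhibitor induced by oxidative stress.

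NRF2 (gene NFE2L2) is held down in unstressed cells by KEAP1, which hands it to a CUL3 ubiquitin ligase for degradation. When cysteines of KEAP1 are modified, NRF2 accumulates, pairs with a small MAF protein and binds antioxidant response elements in its target genes. BACH1 binds many of the same elements, represses HMOX1 in particular, and leaves the DNA when it binds heme. SLC7A11 is also a target of ATF4, the factor of the amino acid response, and ferritin is further set at translation by iron.

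RNA was measured by polyA RNA-seq in 62 libraries, 31 groups of 2, from WIBR3, a human embryonic stem cell (hESC) line, and from its organoids. WT hESC with PF-127 (the block copolymer Pluronic F-127) and WT hESC without it were sampled at 0, 1, 4 and 24 h. The treatment labels call these PN96 and NT96, but the titles of all libraries of this series, also those without PF-127, begin with PN96. WT cortical organoids came as Chip at day 54, PN96 at day 53 and SPIN at day 60. WT hepatic organoids came as Chip at day 17 and as PN96 at days 17 and 21, WT nephron organoids as PN96 at day 7 and WT lung organoids as PN96 at day 20. In a further set, all PN96, 2 clones of genotype NEAT1-/- and a control of genotype CTR were sampled as hESC, as cortical organoids at day 19, nephron organoids at day 13, hepatic organoids at day 21 and lung organoids at day 19. The names PN96, NT96, Chip and SPIN are used as the labels give them. Each NEAT1-/- line is a single clone, and the labels do not say whether both libraries of each group are separate cultures. The p-values therefore measure only how libraries of a group differ, which may be technical.

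Levels are TPM, a share of all transcripts that corrects for gene length, so that levels of different genes can be set side by side. Changes are log2 differences ± standard error from limma on log2(TPM + 1), a scale that understates the change of genes with few TPM. A gene is said to have risen or fallen where its Benjamini-Hochberg adjusted p over all genes tested was under 0.05. A library had 16989 to 20396 genes at 1 TPM or more, and the 2 libraries of a group correlated at 0.969 to 0.993. TPM keeps no depth, so the number of reads behind a value is unknown. Mitochondrially encoded mRNAs took 9.68% to 30.01% of the TPM, and 28.5% to 30.01% with PF-127 at 4 h, against 28.1% to 28.5% without it.

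In GRCh38 with GENCODE 29, HMOX1 is at chr22:35380361-35394214 on the plus strand and NQO1 at chr16:69706996-69726951 on the minus strand. GCLM is at chr1:93885205-93909456 and GCLC at chr6:53497341-53616970, both on the minus strand. TXNRD1 is at chr12:104215779-104350305 on the plus strand and SRXN1 at chr20:646615-653370 on the minus strand. SLC7A11 is at chr4:138164097-138242349 on the minus strand and OSGIN1 at chr16:83948282-83966332 on the plus strand. FTH1 is at chr11:61959718-61967660 on the minus strand and FTL at chr19:48965301-48966878 on the plus strand. All 10 are protein-coding. Values of FTH1 and FTL are uncertain to the extent that reads were shared with their many processed copies.

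Promoter sequences show where the letters of an antioxidant response element stand in some of these genes. RefSeq promoters of GRCh38.p14, from 250 bases before to 50 bases after the start, were at hand for 7 of the 10 genes, 8 promoters in all, because TXNRD1 has 2. HMOX1, SLC7A11 and FTH1 were not among them. They were searched on both strands for TGACNNNGC, the core of the element, and for TGAGNNNGC, a variant of it. A match to TGACNNNGC was found in GCLM and in both TXNRD1 promoters, and it occurs in 13.3% of all 35116 promoters. TGAGNNNGC was found in GCLM, NQO1, OSGIN1 and the second TXNRD1 promoter, and it occurs in 18.3% of all promoters. GCLC, SRXN1 and FTL had neither in this window. The sequences below run 5′ to 3′ on the strand of the gene, with the match in capitals, which reads as the reverse complement of the motif where the match is on the opposite strand.
GCLM, chr1:93909431-93909495, minus strand, TGACNNNGC on the opposite strand 34 bases before the start: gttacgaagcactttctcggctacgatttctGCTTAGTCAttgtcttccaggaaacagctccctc
TXNRD1, first start, chr12:104215649-104215719, plus strand, TGACNNNGC on the same strand 99 bases before the start: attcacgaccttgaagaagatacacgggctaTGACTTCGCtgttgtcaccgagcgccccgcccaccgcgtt
TXNRD1, second start, chr12:104286899-104286969, plus strand, TGACNNNGC on the opposite strand 102 bases before the start: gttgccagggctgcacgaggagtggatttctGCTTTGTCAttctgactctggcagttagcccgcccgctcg
NQO1, chr16:69726640-69726710, minus strand, TGAGNNNGC on the opposite strand 119 bases before the start: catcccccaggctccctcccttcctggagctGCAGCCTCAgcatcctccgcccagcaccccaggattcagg
OSGIN1, chr16:83953110-83953180, plus strand, TGAGNNNGC on the opposite strand 99 bases before the start: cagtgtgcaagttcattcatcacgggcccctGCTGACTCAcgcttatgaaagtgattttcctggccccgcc
A match is a description of the letters and not evidence of a bound site. Among the genes with a match, GCLM and NQO1 rose in hESC at 4 h and OSGIN1 passed the test at no time. TXNRD1 rose at 1 h, a call that is lost when any library compared is left out. Among the genes with no match, FTL also rose at 4 h and GCLC fell, both called only without PF-127, and SRXN1 passed at no step. A link between matches and changes was not tested.

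The genes sat at very different levels. FTL and FTH1 were the most abundant in every group, at 1774 to 11438 TPM for FTL and 945 to 2314 TPM for FTH1 over the 62 libraries. OSGIN1 was the least abundant, at 0.504 to 3.02 TPM, and reached 1 TPM in 48 of the 62 libraries. HMOX1 had the widest range, with group means of 1.41 ± 0.384 TPM in cortical organoids of NEAT1-/- clone 1 and 145 ± 2.93 TPM in hESC without PF-127 at 4 h (SD, n = 2), a ratio of 103. The same ratio of the highest to the lowest group mean was 15.6 for NQO1, 11.3 for SLC7A11, 8.94 for GCLM, 5.62 for FTL, 4.49 for TXNRD1, 3.78 for SRXN1, 3.35 for OSGIN1, 3.02 for GCLC and 2.28 for FTH1. SLC7A11 was highest in hESC of NEAT1-/- clone 2, at 116 ± 7.20 TPM, and lowest in PN96 cortical organoids of day 53, at 10.3 ± 2.29 TPM (SD, n = 2). TXNRD1, FTH1 and FTL were highest in SPIN cortical organoids, and NQO1 in Chip hepatic organoids.

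Over the 24 h of the hESC series, HMOX1 and GCLM formed a peak at 4 h with and without PF-127. With PF-127, HMOX1 had 29.9 and 33.0 TPM at 0 h, 28.7 and 27.2 TPM at 1 h, 81.1 and 77.0 TPM at 4 h, and 29.4 and 28.8 TPM at 24 h. Without PF-127 it had 28.6 and 27.2 TPM at 0 h, 28.2 and 27.0 TPM at 1 h, 147 and 143 TPM at 4 h, and 34.8 and 34.5 TPM at 24 h. All 4 libraries of 4 h stood above all 12 of the other times, and those with PF-127 stood below those without it. At 4 h against 1 h HMOX1 rose by 1.47 ± 0.06 with PF-127 (limma adjusted p = 1.1e-07) and by 2.35 ± 0.06 without it (1.2e-09). At 24 h against 4 h it fell, with log2 changes of -1.41 ± 0.06 with PF-127 (adjusted p = 8.2e-08) and -2.04 ± 0.06 without it (6e-09).

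GCLM, the modifier subunit of the glutathione enzyme, had the same shape at lower height. With PF-127 it had 16.6 and 15.3 TPM at 0 h, 19.3 and 15.9 TPM at 1 h, 26.4 and 28.0 TPM at 4 h, and 14.9 and 12.3 TPM at 24 h. Without PF-127 it had 16.2 and 16.2 TPM at 0 h, 17.0 and 17.3 TPM at 1 h, 33.1 and 33.0 TPM at 4 h, and 16.5 and 15.5 TPM at 24 h. The 4 h libraries did not overlap with those of any other time, nor did the 4 h libraries with and without PF-127 overlap. GCLM rose at 4 h against 1 h, by 0.61 ± 0.10 with PF-127 (limma adjusted p = 0.0015) and by 0.91 ± 0.10 without it (8.5e-05). It fell by 24 h in both arms, with changes of -0.95 ± 0.10 with PF-127 and -1.004 ± 0.098 without it (adjusted p = 3.3e-05 and 2.7e-05). Its partner GCLC took the other direction: at 4 h it had 26.9 and 26.4 TPM with PF-127 and 23.6 and 23.1 TPM without it, against 28.9 and 30.01 TPM with PF-127 and 27.4 and 28.4 TPM without it at 1 h. The fall of GCLC at 4 h passed the test without PF-127 (-0.25 ± 0.06, adjusted p = 0.014), and did not pass with it (-0.14 ± 0.06, 0.13). It is lost, at an adjusted p of up to 0.093, when replicate 2 of 1 h or either replicate of 4 h without PF-127 is left out.

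SLC7A11, the cystine exchanger, peaked at 4 h too and then ended below where it began. With PF-127 it had 27.9 and 23.8 TPM at 0 h, 30.3 and 29.4 TPM at 1 h, 44.8 and 49.8 TPM at 4 h, and 15.3 and 14.3 TPM at 24 h. Without PF-127 it had 27.3 and 28.7 TPM at 0 h, 32.1 and 30.3 TPM at 1 h, 44.6 and 43.3 TPM at 4 h, and 14.3 and 15.2 TPM at 24 h. The 4 h libraries were the 4 highest of the 16 and the 24 h libraries the 4 lowest. At 4 h against 1 h it rose by 0.64 ± 0.08 with PF-127 (limma adjusted p = 0.00027) and by 0.48 ± 0.08 without it (0.0014). At 24 h against 4 h it fell, with changes of -1.61 ± 0.08 and -1.51 ± 0.08 (adjusted p = 2e-07 and 4e-07). Unlike HMOX1 and GCLM, its libraries with PF-127 were not below those without it at 4 h, where the change with PF-127 was 0.10, with a 95% interval of -0.07 to 0.28.

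NQO1 rose and stayed up. With PF-127 it had 29.9 and 30.4 TPM at 0 h, 38.2 and 34.1 TPM at 1 h, 43.9 and 43.9 TPM at 4 h, and 41.1 and 41.4 TPM at 24 h. Without PF-127 it had 27.8 and 28.96 TPM at 0 h, 31.9 and 29.7 TPM at 1 h, 46.4 and 46.3 TPM at 4 h, and 45.6 and 49.3 TPM at 24 h. Every library of 4 h and 24 h stood above every library of 0 h and 1 h. At 4 h against 1 h, NQO1 rose by 0.28 ± 0.06 with PF-127 (limma adjusted p = 0.011, and 0.094 without replicate 2 of 1 h with PF-127) and by 0.57 ± 0.06 without it (0.0001). The step between 4 h and 24 h passed the test in neither arm.

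TXNRD1 moved first. It had 81.6 and 84.2 TPM with PF-127 and 82.3 and 86.2 TPM without it at 1 h, against 71.5 and 68.8 TPM with PF-127 and 66.2 and 67.6 TPM without it at 0 h. The 4 libraries of 1 h stood above the 4 of 0 h. The rise was 0.24 ± 0.06 with PF-127 (limma adjusted p = 0.049) and 0.33 ± 0.06 without it (0.025), and no later step of TXNRD1 passed the test. Leaving out any of the 4 libraries compared ends the call without PF-127, at an adjusted p of up to 0.16. The call with PF-127 ends in 14 of the 16 omissions, at up to 0.26. It is also lost with no filter (0.068), without mitochondrial mRNAs (0.11) and with the replicate block (0.065). With PF-127, NQO1 (0.25 ± 0.06, adjusted p = 0.045) and FTL (0.23 ± 0.04, 0.019) also rose at 1 h. Leaving out any of the 4 libraries compared ends both calls, at an adjusted p of up to 0.25 for NQO1 and 0.11 for FTL. The call of NQO1 ends in 14 of the 16 omissions. It is also lost with no filter (0.055), without mitochondrial mRNAs (0.12) and with the replicate block (0.064). That of FTL is lost with no filter (0.11). Mitochondrial mRNAs took 27.8% to 29.5% of the TPM with PF-127 at 0 h and 25.0% to 25.3% at 1 h.

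The ferritin chains changed by less. FTL had 3546 and 3383 TPM with PF-127 and 3629 and 3727 TPM without it at 4 h, against 3290 and 3291 TPM with PF-127 and 2787 and 2973 TPM without it at 1 h. FTH1 had 1310 and 1175 TPM with PF-127 and 1425 and 1465 TPM without it at 4 h, against 1259 and 1212 TPM with PF-127 and 1072 and 1181 TPM without it at 1 h. Only the steps without PF-127 passed the test, at 0.35 ± 0.04 for FTL and 0.36 ± 0.08 for FTH1 (limma adjusted p = 0.00025 and 0.0063), and the call of FTH1 ends without replicate 1 of 1 h (0.062). SRXN1 stayed between 37.3 and 53.3 TPM in all 16 libraries and OSGIN1 between 0.504 and 1.56 TPM, and neither passed the test at any step.

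**Figure D1:**
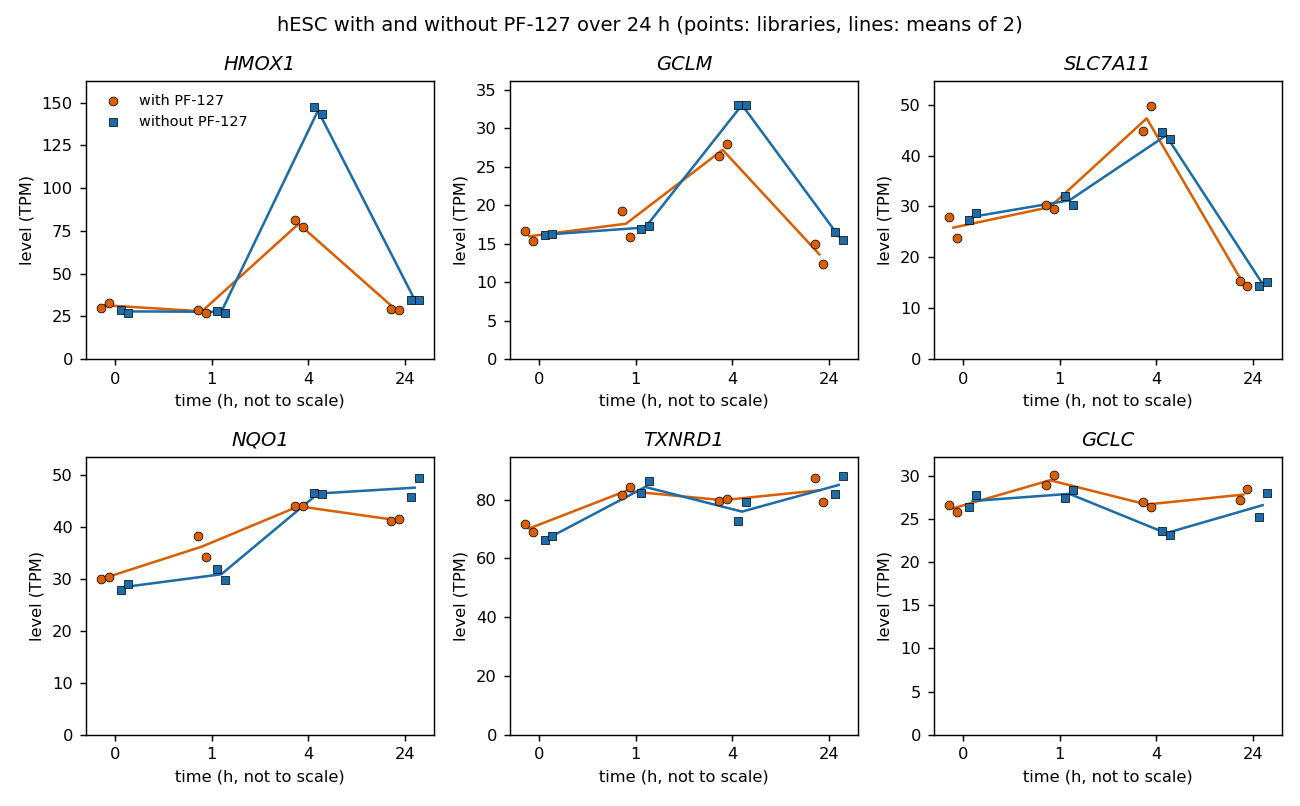
Levels (TPM, y axis from 0) of 6 genes in hESC at 0, 1, 4 and 24 h (x axis, not to scale), with PF-127 as orange circles and without it as blue squares, each point a library and each line the mean of 2. HMOX1 at 4 h lies at 81.1 and 77.0 TPM with PF-127 and at 147 and 143 TPM without it, while SLC7A11 at 4 h lies at 44.8 and 49.8 TPM with PF-127 and at 44.6 and 43.3 TPM without it.

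By count, 4 of the 10 genes rose with PF-127 at 4 h against 1 h, where 21.6% of all genes tested were called and 8.11% rose. Without PF-127, 6 rose and 1 fell, where 22.3% of all genes were called, 10.2% rising and 12.1% falling. The median change of the 10 genes was 0.17 with PF-127 and 0.42 without it, beside -0.07 and -0.02 over all genes. At 24 h against 4 h, 3 fell and 2 rose with PF-127, where 36.9% of all genes were called, 10.5% falling and 26.4% rising. In hESC kept without it 3 fell and 1 rose, where 32.9% of all genes were called, 8.96% falling and 23.9% rising. At 1 h against 0 h, 3 rose with PF-127 (5.06% of all genes called, 2.74% rising) and 1 without it (1.69% called, 0.653% rising). The small rises at 24 h were those of FTH1 (0.27 ± 0.08, limma adjusted p = 0.016) and FTL (0.19 ± 0.04, 0.0062) with PF-127 and of GCLC (0.18 ± 0.06, 0.044) without it. The median of all genes moved by 0.12 and 0.11 in the same step, against -0.01 and -0.00 once libraries were rescaled by size factors, and with that scaling none of these 3 rises was called (adjusted p = 0.19, 0.44 and 0.63). The share of all called genes that were higher was 71.6% and 72.7% at 24 h against 4 h, and 49.8% and 48.8% with size factors. At 4 h against 1 h with PF-127 it was 37.5%, and 55.4% with size factors. At 1 h against 0 h it was 54.0% with PF-127 and 38.5% without it, and 55.6% and 57.2% with size factors. It was 20.0% and 27.6% there when mitochondrial mRNAs were left out of the TPM.

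Set against hESC without PF-127 at the same time, HMOX1 was the only one of the 10 genes called with PF-127, and only at 4 h. HMOX1 fell by 0.87 ± 0.06 on the log2 scale (95% interval -1.001 to -0.739, limma adjusted p = 0.00021) at 4 h, where 0.213% of all genes were called and 0.14% fell. It remained called, at an adjusted p of at most 0.0099, with any of the 16 libraries left out, but a fit of the 4 libraries of 4 h alone gave 0.33. GCLM moved in the same direction at 4 h without passing the test (-0.27 ± 0.10, 95% interval -0.49 to -0.06, adjusted p = 0.24), as did FTH1 (-0.22 ± 0.08, 0.23). GCLC lay on the other side (0.18 ± 0.06, 0.21), and the changes of the other 6 genes were between -0.16 and 0.10. The median of the 10 was -0.08, beside -0.00 over all genes.

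None of the 10 genes was called at 0 h or 1 h, where 0% of all genes were called and 1029 and 1370 genes had an unadjusted p under 0.05, and none at 24 h, where 1.23% were called. At 24 h the level of HMOX1 with PF-127 was again the lower one, with a change of -0.25 ± 0.06 that did not pass (limma adjusted p = 0.081), and NQO1 (-0.20 ± 0.06, 0.2) and GCLM (-0.22 ± 0.10, 0.38) had changes of like size. Averaged over the 4 times HMOX1 was lower with PF-127 by a log2 change of -0.23 ± 0.03 (adjusted p = 0.014), where 0.207% of all genes were called and 0.14% were lower. Of the 16 omissions of a library, 5 raise its adjusted p to as much as 0.061, namely replicate 2 of 1 h with PF-127, and without PF-127 replicate 1 of 1 h, replicate 1 of 4 h and either replicate of 24 h. Of all called genes in the average 32.5% were higher with PF-127, and 19.3% with size factors. The change with PF-127 differed between the times for HMOX1 (interaction adjusted p = 0.0063, 0.187% of all genes called), and for the other 9 genes this test gave adjusted p-values between 0.21 and 0.99.

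**Figure D2:**
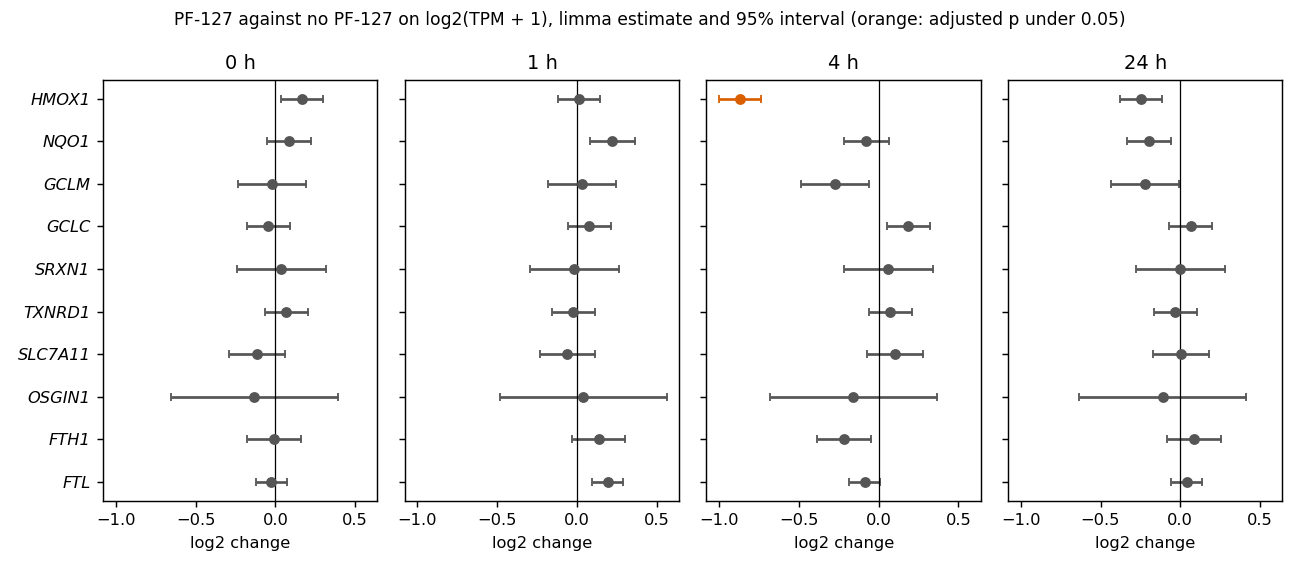
Change with PF-127 against no PF-127 (log2 scale, x axis) of the 10 genes at 0, 1, 4 and 24 h, as the limma estimate with its 95% interval, orange where the adjusted p was under 0.05. HMOX1 at 4 h, at -0.87, is the single orange point.

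The regulators of NRF2 and neighbouring pathways put these values in context. Among 8 regulators (NFE2L2, KEAP1, CUL3, BACH1, MAFF, MAFG, MAFK and NFE2L1), 17 other NRF2 targets, 10 genes of heme synthesis and transport, 6 of iron handling, 8 of glutathione metabolism and ferroptosis, 8 heat shock genes, 7 ATF4 targets and 7 metallothioneins, no gene was called with PF-127 at 0, 1 or 4 h. At 24 h ASNS, asparagine synthetase, was higher with PF-127 (0.72 ± 0.06, limma adjusted p = 0.00028), as were CHAC1, which degrades glutathione (0.41, 0.046), and HSPA8, a constitutive chaperone (0.31, 0.0093), while the metallothionein MT1X was lower (-0.72 ± 0.08, 0.0018). Metallothioneins, small cysteine-rich metal binders, summed to 1045 to 1269 TPM with PF-127 and 1463 to 1558 TPM without it at 4 h, with a median change of -0.41 and no member called. At 24 h they summed to 366 to 379 TPM with PF-127 and 506 to 525 TPM without it.

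Over time the neighbours moved more. BACH1, the repressor of HMOX1, rose at 1 h against 0 h by 0.37 with PF-127 and 0.41 without it (limma adjusted p = 0.025 and 0.027), and ATF3, a stress-induced factor, by 1.15 and 1.02 (0.00011 and 0.0003). At 4 h against 1 h all 7 metallothioneins rose in both arms, with a median of 1.83 with PF-127 and 2.63 without it. Of all genes tested, 21.6% were called in this step with PF-127, 8.11% rising. Without PF-127 22.3% were called, 10.2% rising and 12.1% falling. MT1H rose by 2.62 with PF-127 and 2.89 without it, and MT1E by 2.30 and 2.93. Of the 8 regulators, 3 rose and 2 fell with PF-127 and 4 rose and 2 fell without it, with changes of 0.56 and 0.60 for MAFG and -0.56 and -0.62 for MAFF, both small MAF partners of NRF2. Of the 17 other NRF2 targets, 1 rose and 4 fell with PF-127 and 3 rose and 3 fell without it, among them GPX2, a glutathione peroxidase, at 0.70 and 0.74, and CBR1, a carbonyl reductase, at -0.36 and -0.44. Of the 7 ATF4 targets, 3 rose with PF-127 and 4 without it, and ATF3, TRIB3 and DDIT3 were among them, by 0.81, 0.47 and 0.60 with PF-127 and by 1.27, 1.10 and 0.72 without it. CHAC1 rose by 0.64 and 0.60.

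At 24 h against 4 h, 6 of the 7 metallothioneins fell in each arm, with MT1X at -2.63 with PF-127 and -2.10 without it. Of all genes tested, 10.5% fell in this step with PF-127 and 8.96% without it. Of the ATF4 targets 5 fell with PF-127 and 6 without it, with ATF3 at -2.07 and -2.39. CHAC1 fell (-2.01 and -2.26), as did SLC3A2, the heavy chain that anchors SLC7A11 in the membrane (-0.64 and -0.55), and NFE2L1, a relative of NRF2 (-0.54 and -0.85). Of the 17 other NRF2 targets, 10 rose and 0 fell with PF-127, where 26.4% of all genes rose, and 3 rose and 0 fell without it, where 23.9% rose. CBR1 rose by 1.02 and 0.98. Most called genes rose in this step unless libraries were rescaled.

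Across the 8 group means of the hESC series, GCLM followed HMOX1 most closely of the 9 (Pearson r = 0.95 on the log2 scale, over 8 group means that share their controls and times), then OSGIN1 (0.81), SLC7A11 (0.64) and NQO1 (0.62). GCLC ran opposite, at -0.82. Among 10939 genes that reached 5 TPM, the 5 most like HMOX1 were ZNF425 (0.99), GUCY2C (0.99), SYT6 (0.98), ZNF432 (0.98) and RASGEF1A (0.98). At 4 h ZNF425, a zinc finger gene, had 16.9 ± 1.81 TPM with PF-127 and 25.1 ± 1.55 TPM in hESC without it, and GUCY2C, the guanylate cyclase receptor of the gut, had 5.50 ± 0.259 TPM with PF-127 and 8.75 ± 0.0652 TPM in hESC without it (SD, n = 2). Over all 31 groups the order was another: GCLC (0.70), GCLM (0.63), NQO1 (0.60) and FTL (0.56) came nearest, SLC7A11 stood at -0.13, and WASL, RAB3B, NECAB1, SC5D and SPINT2 were the 5 most alike genes, at 0.84 to 0.88.

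CTR organoids and CTR hESC were then compared to ask how the genes differ between tissues of the same line. The labels were checked against markers. Cortical organoids had PAX6 at 111 to 144 TPM, hepatic organoids AFP at 5739 to 7447 TPM and ALB at 30.8 to 71.3 TPM, and nephron organoids PAX2 at 9.87 to 14.7 TPM and WT1 at 11.2 to 16.5 TPM. The organoids labelled lung had NKX2-1 at 0.205 to 1.70 TPM, SFTPB at 0 to 0.160 TPM and SFTPC at 0. Their label is not borne out by these lung markers. The markers given here are only part of the list chosen for each tissue, so no label was judged on its whole list. The pluripotency gene POU5F1 remained at 17.8 to 70.0 TPM in the lung and 34.5 to 35.1 TPM in the hepatic libraries, against 129 to 151 TPM in hESC, and the share of such cells in the values below was not tested. In bulk samples fewer cells of a type and less RNA per cell cannot be told apart.

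HMOX1 covered the widest range of levels over the 5 cell types. It had 54.8 and 53.9 TPM in hepatic, 39.8 and 61.0 TPM in lung, 14.5 and 15.6 TPM in nephron and 2.26 and 2.23 TPM in cortical organoids, against 20.8 and 17.7 TPM in hESC. Hepatic and lung libraries were all above hESC, cortical libraries all far below, and nephron libraries a little below. Against hESC it rose in hepatic (1.45 ± 0.20, limma adjusted p = 0.00066) and lung organoids (1.32 ± 0.20, 0.0014) and fell in cortical organoids (-2.64 ± 0.20, 2.4e-05), none of which leaving out a library ended. WT PN96 organoids of nearby days, a separate set of the same line that was not tested against hESC, did not have these higher levels. HMOX1 was at 18.9 and 22.7 TPM in WT hepatic organoids of day 21 and at 22.7 and 12.9 TPM in WT lung organoids of day 20, against 27.2 to 33.0 TPM in WT hESC at 0 h. The nephron change was -0.34 ± 0.20 (0.2), relative to a median of all genes of 0.37 in that comparison, and with size factors, where that median is 0.04, it was -0.72 and called (0.04). In the order hepatic, lung, hESC, nephron, cortical, the neighbours hepatic and lung (0.14 ± 0.20, 95% interval -0.33 to 0.60, 0.63) did not differ beyond their spread, nor did nephron organoids and hESC without rescaling. Nephron exceeded cortical by 2.30 ± 0.20 (5.4e-05) and hepatic exceeded cortical by 4.09 ± 0.20 (2.3e-06).

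FTL, the ferritin light chain, had nearly the same order. It had 6758 and 7054 TPM in lung, 5325 and 5329 TPM in hepatic, 3505 and 3221 TPM in nephron and 2259 and 2253 TPM in cortical organoids, against 3084 and 3006 TPM in hESC. Only the nephron libraries came near those of hESC. It rose in lung (1.18 ± 0.10, limma adjusted p = 0.0001) and hepatic organoids (0.81 ± 0.10, 0.00033) and fell in cortical organoids (-0.43 ± 0.10, 0.0059). In nephron organoids its change was 0.14 ± 0.10 (0.25), and -0.27 with size factors, so its sign depends on the scaling. FTH1, the heavy chain, stayed between 1438 and 1761 TPM in these 10 libraries and passed the test in none of the comparisons of CTR organoids, with hESC or with each other, although with size factors it was lower in nephron organoids than in hESC (-0.50, 0.027).

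Within the CTR libraries, SLC7A11 and SRXN1 had their highest levels in hESC. SLC7A11 had 9.98 and 12.8 TPM in hepatic, 23.4 and 30.9 TPM in cortical, 63.8 and 31.4 TPM in nephron and 16.7 and 70.3 TPM in lung organoids, against 103 and 103 TPM in hESC. All 8 organoid libraries were below hESC, and the 2 lung libraries lay far apart, as they did in POU5F1. That order does not extend to the WT libraries, where SLC7A11 was at 23.8 to 28.7 TPM in hESC at 0 h, below WT nephron organoids of day 7 (41.1 and 46.0 TPM) and WT lung organoids of day 20 (41.1 and 33.6 TPM). It fell in hepatic organoids (-3.08 ± 0.56, limma adjusted p = 0.0026) and cortical organoids (-1.90 ± 0.56, 0.02, a call that ends without any of the 4 libraries compared, at up to 0.10), and the changes in nephron (-1.19 ± 0.56, 0.11) and lung organoids (-1.55 ± 0.56, 0.056) did not pass. SRXN1 had 27.0 and 23.1 TPM in hepatic, 28.1 and 26.2 TPM in lung, 35.8 and 42.7 TPM in nephron and 16.6 and 16.1 TPM in cortical organoids, against 58.1 and 54.0 TPM in hESC. It fell in all 4, with changes of -1.71 ± 0.14 in cortical (3.4e-05), -1.13 ± 0.14 in hepatic (0.00038), -1.02 ± 0.14 in lung (0.00085) and -0.51 ± 0.14 in nephron organoids (0.016, and up to 0.12 without either hESC library or nephron replicate 1). The WT libraries differ here too: SRXN1 was at 48.1 and 57.9 TPM in nephron organoids of day 7, against 41.9 to 53.3 TPM in hESC at 0 h.

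TXNRD1 split the organoids in another way. It had 70.8 and 72.1 TPM in lung, 45.6 and 48.8 TPM in nephron, 37.2 and 37.2 TPM in cortical and 32.8 and 29.6 TPM in hepatic organoids, against 56.1 and 55.9 TPM in hESC, with no overlap between any of the 5 cell types. Hepatic organoids, highest for HMOX1, were lowest for TXNRD1 (-0.82 ± 0.11 against hESC, limma adjusted p = 0.00051), and cortical organoids were lower than hESC too (-0.58 ± 0.11, 0.0023). The rise in lung organoids (0.35 ± 0.11, 0.034) is lost with size factors (0.11), without mitochondrial mRNAs (0.072) and without either hESC or either nephron library (up to 0.16). In nephron organoids the change was -0.24 ± 0.11 (0.093), and -0.64 and called with size factors (0.0038).

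The glutathione enzyme subunits and NQO1 were lowest in cortical organoids or near it. GCLM had 5.17 and 6.16 TPM in cortical, 6.14 and 5.03 TPM in nephron, 8.10 and 10.2 TPM in hepatic and 7.14 and 8.94 TPM in lung organoids, against 13.4 and 14.5 TPM in hESC, which stood above all of them. It fell in nephron (-1.19 ± 0.21, limma adjusted p = 0.002), cortical (-1.17 ± 0.21, 0.0019) and lung organoids (-0.73 ± 0.21, 0.025, and up to 0.14 without either hESC library or lung replicate 1). The hepatic change was -0.57 ± 0.21 (0.06). GCLC had 9.35 and 12.7 TPM in cortical organoids, against 21.4 and 22.4 TPM in hESC (-0.94 ± 0.19, 0.0035), and 19.4 to 30.9 TPM in the other 3 organoids, where it was not called, except in nephron organoids with size factors (-0.55, 0.029). NQO1 had 7.57 and 5.93 TPM in cortical organoids, against 16.5 and 18.1 TPM in hESC (-1.25 ± 0.33, 0.013, and up to 0.078 without replicate 2 of either group). Its 2 hepatic libraries, at 33.7 and 16.4 TPM, lay on both sides of hESC.

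**Figure D3:**
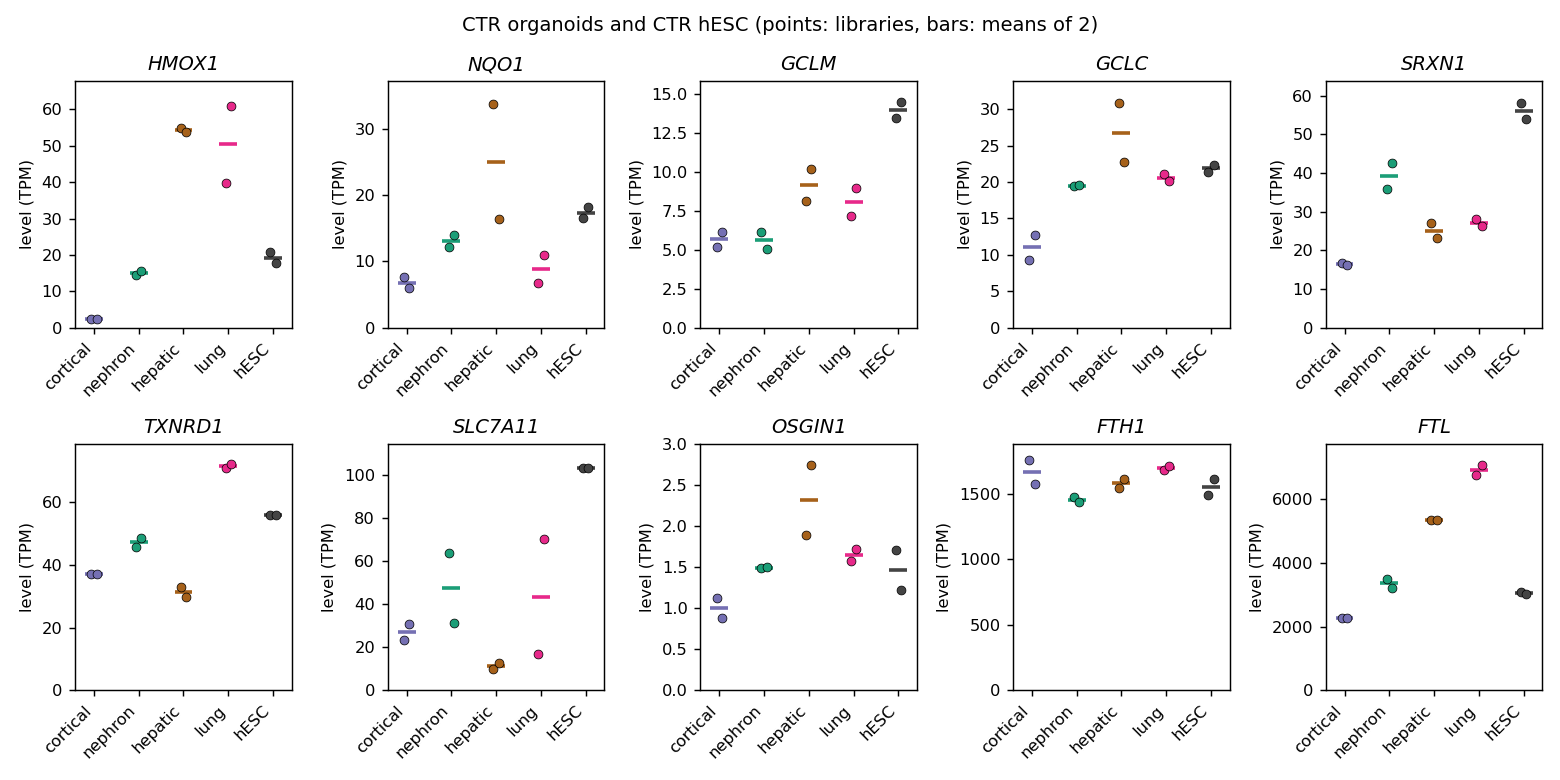
Levels (TPM, y axes from 0) of the 10 genes in CTR cortical, nephron, hepatic and lung organoids and CTR hESC (x axis), each point a library and each bar the mean of 2. HMOX1 lies at 2.26 and 2.23 TPM in cortical and 54.8 and 53.9 TPM in hepatic organoids, and FTH1 between 1438 and 1761 TPM in all 10 libraries.

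In counts, 8 of the 10 genes fell in cortical organoids against hESC and none rose, where 52.5% of all genes were called and 25.5% fell. The median change of the 10 was -1.05, beside 0.03 over all genes. In nephron organoids 2 fell (52.5% of all genes called, 15.8% falling), and 6 were called with size factors, where 50.3% of all called genes were higher in place of 69.9%. Hepatic organoids had 2 genes higher and 3 lower than hESC, where 43.3% of all genes were called, 25.1% higher and 18.2% lower. Lung organoids had 3 higher and 2 lower, where 39.8% were called, 20.3% higher and 19.6% lower. Between organoids, 7 of 10 were higher in hepatic than in cortical organoids (50.8% of all genes called, 28.3% higher). Against cortical organoids 5 were also higher in lung (47% called, 23.9% higher) and 5 in nephron organoids (41.7% called, 30.6% higher). HMOX1, FTL, GCLC and SRXN1 were called in all 3 of these comparisons, but with size factors GCLC, FTL and TXNRD1 lose their calls in nephron against cortical organoids (limma adjusted p = 0.061, 0.29 and 0.96). GCLM in hepatic and TXNRD1 in nephron against cortical organoids each lose their call in 8 of the 10 omissions of a library. In hepatic against cortical organoids, OSGIN1 loses its call in 3 of the 10 omissions (limma adjusted p up to 0.17). SRXN1 loses it there without hepatic replicate 1 (0.072). Hepatic against nephron organoids had 2 higher and 3 lower, where 37.2% of all genes were called, 12.2% higher and 25% lower. All 3 lower calls, SRXN1, TXNRD1 and SLC7A11, are lost with size factors (limma adjusted p = 0.13, 0.14 and 0.08). Those of SRXN1 and SLC7A11 also end in 2 and 3 of the 10 omissions of a library, at up to 0.076 without nephron replicate 2 or hepatic replicate 2 and up to 0.17 without nephron replicate 1 or either hepatic library. Lung against nephron organoids had 3 higher and 1 lower, where 49.8% were called, 15.5% higher and 34.3% lower. The lower call, SRXN1, is lost with size factors (0.36), with only the 4 libraries compared (0.093) and without nephron replicate 2 (0.12). Hepatic against lung organoids had 1 higher and 2 lower, where 38.1% were called, 21.8% higher and 16.3% lower. In the last, NQO1 was higher in hepatic organoids (1.356 ± 0.335, limma adjusted p = 0.013, and up to 0.092 without replicate 1 of either group) and TXNRD1 and FTL lower (-1.17 ± 0.11 and -0.37 ± 0.10, 0.0001 and 0.017). The call of FTL is lost with size factors (0.094), with no filter (0.054), with only the 4 libraries compared (0.22) and without either hepatic library (up to 0.057). The nephron libraries were the ones that moved with the scaling: 32.8% and 31.1% of called genes were higher in hepatic and lung against nephron organoids, and 55.2% and 48.9% with size factors, while 73.4% were higher in nephron against cortical organoids, and 52.5% with size factors.

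Other groups of genes were counted in the same tissues. All 7 metallothioneins fell in cortical and nephron organoids against hESC, where MT1G was listed at 0 in both, 3 of 7 fell in lung organoids and none was called in hepatic organoids. Of 21 other NRF2 targets, 1 rose and 10 fell in cortical, 2 rose and 7 fell in nephron, 5 rose and 7 fell in hepatic and 1 rose and 6 fell in lung organoids. Of all genes 52.5%, 52.5%, 43.3% and 39.8% were called in these 4 tissues, so the number called on this list was near or below that share in cortical, nephron and lung organoids. GPX2, a glutathione peroxidase, and AKR1C1, an aldo-keto reductase, rose in hepatic organoids by 5.18 and 3.88 (limma adjusted p = 2.2e-05 and 0.00028), as did AKR1B10, another aldo-keto reductase, which was listed at 0 in hESC (0.0062). MAFF rose in hepatic (2.28, 0.00067) and lung organoids (3.80, 0.0001), and NFE2L1 fell in all 4, with -1.21 in cortical, -1.20 in nephron, -1.73 in hepatic and -1.17 in lung organoids. SLC40A1, the iron exporter, rose in hepatic (5.42), nephron (3.76) and cortical organoids (2.21), and TFRC, the transferrin receptor, rose in nephron (1.60) and hepatic organoids (1.49). PSAT1, an ATF4 target of serine synthesis, fell in hepatic (-3.53), lung (-2.98), nephron (-1.77) and cortical organoids (-1.15). The heat shock gene DNAJB1 rose in all 4, by 2.25 in lung, 1.86 in hepatic, 0.90 in cortical and 0.67 in nephron organoids.

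The culture conditions of WT cortical organoids were compared at nearby days. None of the 10 genes was called between Chip at day 54 and PN96 at day 53, where 0.088% of all genes were called and 2571 genes had an unadjusted p under 0.05. SLC7A11 differed most, at 41.1 and 43.6 TPM in Chip and 11.9 and 8.65 TPM in PN96 organoids. Its change of 1.96 ± 0.27 (95% interval 1.31 to 2.61) had a limma adjusted p of 0.1, and GCLM, at 10.7 and 9.74 TPM in Chip and 5.54 and 5.81 TPM in PN96, had a change of 0.74 ± 0.23 (0.33). Of the 7 ATF4 targets tested, 1 was called, PSAT1 (1.44, 0.043), and of the 8 glutathione and ferroptosis genes 1, CHAC1 (2.29, 0.03), both higher in Chip organoids. HMOX1 could not be placed, since its 2 Chip libraries had 15.7 and 4.02 TPM.

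PN96 cortical organoids of day 53 had lower levels of 7 of the 10 genes than SPIN cortical organoids of day 60, where 39.2% of all genes were called and 17.2% were lower. The median change of the 10 was -0.81, beside -0.00 over all genes. NQO1 had 4.86 and 6.71 TPM in PN96 and 31.9 and 82.4 TPM in SPIN organoids, TXNRD1 39.5 and 42.1 TPM against 126 and 154 TPM, and FTL 5073 and 4335 TPM against 11438 and 9695 TPM. In each the groups were far apart, and for NQO1 the SPIN libraries differed widely. The changes were -2.96 ± 0.52 for NQO1 (limma adjusted p = 0.006), -1.75 ± 0.14 for TXNRD1 (0.0004), -1.39 ± 0.23 for GCLM (0.0052) and -1.17 ± 0.23 for FTL (0.0091). They were -0.92 ± 0.17 for GCLC (0.0073), -0.70 ± 0.13 for FTH1 (0.0082) and -0.69 ± 0.17 for SRXN1 (0.021). GCLC and SRXN1 are not called without replicate 1 of PN96, and SRXN1, FTH1 and FTL not without replicate 2 of PN96. HMOX1 had 11.8 and 11.3 TPM in PN96 and 14.6 and 17.5 TPM in SPIN organoids, a change of -0.43 ± 0.52 (0.55). The gene with the widest range over the series was thus not called here, although its PN96 and SPIN libraries did not overlap. The spread of this fit also holds the Chip libraries, at 15.7 and 4.02 TPM.

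Markers of other cell types differed between the same libraries. The 5 hepatic markers summed to 0.953 to 2.74 TPM in PN96 and 82.2 to 1574 TPM in SPIN, mostly TTR, which choroid plexus also makes, at 51.7 to 1536 TPM. The 5 stromal markers summed to 18.3 to 30.4 TPM in PN96 and 399 to 2984 TPM in SPIN, the 4 endothelial markers to 0.596 to 1.302 TPM and 14.5 to 86.3 TPM, and the 6 macrophage markers to 4.56 to 5.32 TPM and 14.3 to 14.6 TPM. All 8 erythroid markers were at 0 in SPIN. Their part in the differences of the 10 genes was not tested, and the day, 53 or 60, cannot be told apart from the culture condition. Other lists did not move as one: the ferroptosis list had 4 higher and 1 lower, with GPX1 at 2.50 and GGT1 at 2.20, the other NRF2 targets 3 higher and 7 lower, with PIR at -1.66 and AKR1B10 listed at 0 in PN96, and HSPB1, a small heat shock protein, was higher in PN96 by 5.66 (limma adjusted p = 8.4e-05). Of all genes tested, 39.2% were called in this comparison and 17.2% were lower.

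In WT hepatic organoids of day 17, Chip culture had higher HMOX1. It had 75.9 and 63.6 TPM in Chip and 24.2 and 25.1 TPM in PN96 organoids, without overlap. The rise was 1.46 ± 0.14 (95% interval 1.12 to 1.80, limma adjusted p = 0.019), where 7.56% of all genes were called and 0.896% were higher, and the call ends when any of the 4 libraries is left out, at an adjusted p of up to 0.16. The median of all genes was -0.22 in this comparison, and 0.01 with size factors, where the change of HMOX1 was 1.71 (0.018). Of all called genes 11.9% were higher in Chip, against 48.6% with size factors and 34.0% without mitochondrial mRNAs, whose share was 26.9% to 27.9% in Chip and 17.4% to 17.7% in PN96. The other 9 genes did not pass. NQO1 came next, at 65.4 and 67.0 TPM in Chip and 30.5 and 39.0 TPM in PN96 (0.92 ± 0.22, 0.06), then FTL at 4867 and 4971 TPM and 3125 and 3826 TPM (0.51 ± 0.14, 0.073) and GCLM at 12.5 and 12.8 TPM and 8.43 and 10.3 TPM (0.41 ± 0.17, 0.17).

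In these hepatic libraries the 5 hepatic markers summed to 5966 to 6304 TPM in Chip and 2921 to 5185 TPM in PN96, the 5 stromal markers to 1458 to 1532 TPM and 2058 to 5207 TPM, and the 4 endothelial markers to 135 to 138 TPM and 184 to 241 TPM. Their part in the HMOX1 difference was not tested. TXN, the thioredoxin that TXNRD1 reduces, was called higher in Chip (0.59, limma adjusted p = 0.028), as were HSPA8 (0.54, 0.034) and PSAT1 (0.74, 0.02), and CBR1 (-1.53, 0.041) and CPOX, an enzyme of heme synthesis (-0.59, 0.047), were called lower. Between PN96 hepatic organoids of day 21 and day 17 none of the 10 genes was called (0.101% of all genes, 3879 with an unadjusted p under 0.05). HMOX1 had 18.9 and 22.7 TPM at day 21 and 24.2 and 25.1 TPM at day 17, with a change of -0.24 ± 0.14 (0.4), and SLC7A11 had 9.04 and 19.1 TPM and 24.8 and 26.04 TPM (-0.90 ± 0.31, 0.22).

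**Figure D4:**
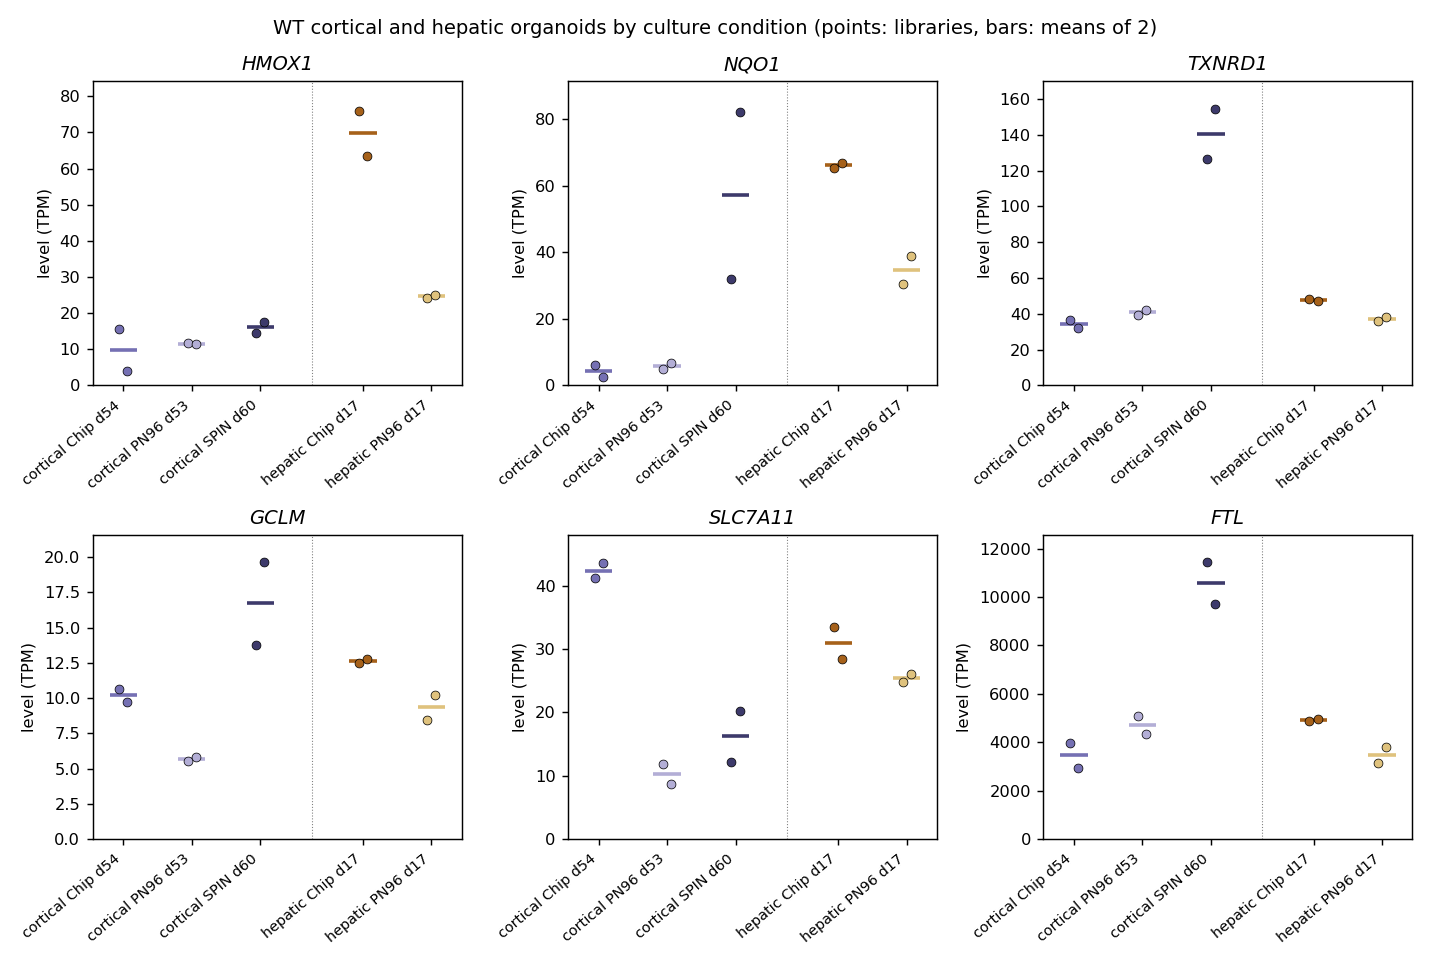
Levels (TPM, y axes from 0) of 6 genes in WT cortical organoids as Chip, PN96 and SPIN and WT hepatic organoids as Chip and PN96 (x axis), each point a library and each bar the mean of 2. HMOX1 is highest in Chip hepatic organoids, at 75.9 and 63.6 TPM, and TXNRD1 in SPIN cortical organoids, at 126 and 154 TPM.

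Knockout of NEAT1, a long non-coding RNA that builds paraspeckles, was compared with CTR in 5 cell types. NEAT1 itself was at 0 to 0.0857 TPM in the clones and 1.78 to 1.95 TPM in CTR hESC. In organoids it was at 0.0995 to 0.273 TPM in the clones and 5.47 to 8.43 TPM in CTR for cortical, 0.0207 to 0.590 and 30.7 to 44.2 TPM for nephron, 0.142 to 0.566 and 39.8 to 44.3 TPM for hepatic, and 0.192 to 0.869 and 10.8 to 21.7 TPM for lung, each library matching its label.

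HMOX1 and FTL were lower in knockout nephron organoids. HMOX1 had 7.75 and 8.71 TPM in clone 1 and 9.41 and 8.73 TPM in clone 2, against 14.5 and 15.6 TPM in CTR. FTL had 2468 and 2622 TPM in clone 1 and 2444 and 2558 TPM in clone 2, against 3505 and 3221 TPM in CTR. The 4 knockout libraries lay below both CTR libraries for each gene. HMOX1 fell by 0.73 ± 0.13 on the log2 scale (95% interval -1.03 to -0.43, limma adjusted p = 0.023) and FTL fell by 0.41 ± 0.07 (0.025), where 7.23% of all genes were called and 5.05% fell, and the other 8 genes did not pass. Both calls end without any of the 6 libraries (adjusted p up to 0.11 for HMOX1 and 0.10 for FTL) and for clone 2 alone (0.089 and 0.073). In the same libraries the 4 endothelial markers summed to 30.2 to 71.3 TPM in the knockout and 180 to 181 TPM in CTR, the 5 stromal markers to 881 to 1530 TPM and 3317 to 4835 TPM, and the 4 nephron markers to 82.9 to 147 TPM and 31.9 to 67.1 TPM. Their part in the changes of HMOX1 and FTL was not tested.

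In the other cell types none of the 10 genes passed, where 0.6% of all genes were called in hESC, 0.0722% in cortical, 0.00474% in hepatic and 0% in lung organoids (4187, 1504, 2307 and 595 genes with an unadjusted p under 0.05). OSGIN1 was too low to be tested in cortical organoids. HMOX1 had 18.8 and 14.1 TPM in clone 1 and 12.4 and 14.6 TPM in clone 2, against 20.8 and 17.7 TPM in CTR hESC (-0.36 ± 0.14, limma adjusted p = 0.2). In hepatic organoids it had 32.2 and 49.4 TPM in clone 1 and 34.0 and 34.2 TPM in clone 2, against 54.8 and 53.9 TPM in CTR, with all 4 knockout libraries below CTR (-0.55 ± 0.19, 0.42). In lung organoids it had 47.1 and 65.3 TPM in clone 1 and 54.1 and 36.9 TPM in clone 2, against 39.8 and 61.0 TPM in CTR, with overlap (0.01 ± 0.25, 1). In cortical organoids it had 1.14 and 1.68 TPM in clone 1 and 1.13 and 3.15 TPM in clone 2, against 2.26 and 2.23 TPM in CTR, with 1 library of clone 2 above CTR (-0.28 ± 0.32, 0.92). Its change did not differ between cell types by the interaction test (adjusted p = 0.53). FTL in hESC had 2671 and 2492 TPM in clone 1 and 2516 and 2514 TPM in clone 2, against 3084 and 3006 TPM in CTR (-0.26 ± 0.05, 0.087).

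The change of FTL differed between cell types (interaction adjusted p = 0.023 by limma, 2.22% of all genes called), with -0.26 in hESC and -0.41 in nephron organoids, and 0.11 in cortical, 0.03 in hepatic and 0.02 in lung organoids. The clones stood on opposite sides of CTR in the last 3. In hepatic organoids clone 1 had 6281 and 6346 TPM and clone 2 had 4839 and 4512 TPM, against 5325 and 5329 TPM in CTR. In lung organoids clone 1 had 7759 and 7992 TPM and clone 2 had 6315 and 6104 TPM, against 6758 and 7054 TPM. In cortical organoids clone 1 had 1949 and 2207 TPM and clone 2 had 2926 and 2823 TPM, against 2259 and 2253 TPM. The interaction call is lost with size factors (0.14), without a filter (0.11) and in 6 of the 30 omissions of a library (up to 0.12), namely hESC CTR replicate 1, cortical CTR replicate 2, and among nephron libraries both CTR replicates and replicate 1 of each clone.

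The authors' deposited tables compare each clone with CTR by DESeq2. For FTL in hESC the authors' deposited table gives a log2 change of -0.32 in clone 1 (adjusted p = 0.002) and -0.38 in clone 2 (3.9e-05), where 2.19% and 7.65% of genes with an adjusted p passed. For HMOX1 in hESC the authors' deposited table gives -0.30 in clone 1 (0.59) and -0.62 in clone 2 (0.014), and for FTH1 -0.18 (0.11) and -0.26 (0.0023). In nephron organoids the authors' deposited table gives FTL at -0.38 in each clone, with an adjusted p of 0.04 in clone 1 and 0.088 in clone 2 (12.4% and 3.77% of genes passing), and HMOX1 at -0.85 (0.11) and -0.68 (0.33). In the authors' deposited tables for cortical, hepatic and lung organoids none of the 10 genes passed, where 0.698% and 2.25%, 2.6% and 2.66%, and 0.0552% and 0.0894% of genes passed in clones 1 and 2. Those tables test each clone alone, while the limma contrast took the mean of both clones. In nephron organoids FTL passed in the limma contrast and, for clone 1, in those tables. HMOX1 in nephron organoids passed only in the limma contrast. In hESC, FTL in both clones and HMOX1 and FTH1 in clone 2 passed in those tables, and none of them passed in the limma contrast.

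**Figure D5:**
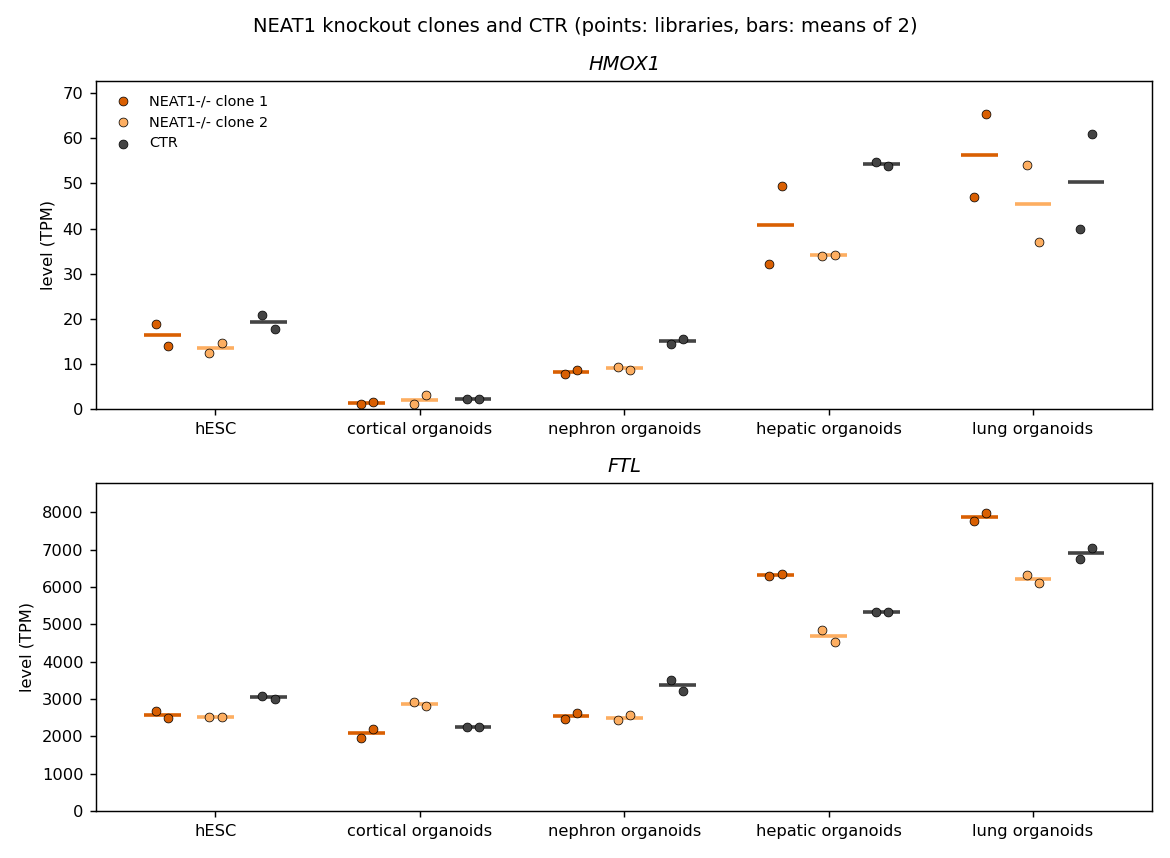
Levels (TPM, y axes from 0) of HMOX1 and FTL in NEAT1-/- clone 1, NEAT1-/- clone 2 and CTR in 5 cell types (x axis), each point a library and each bar the mean of 2. In nephron organoids all 4 knockout libraries lie below CTR for both genes, and in hepatic and lung organoids FTL of clone 1 lies above CTR and FTL of clone 2 below it.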

How the data were processed

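PolyA RNA was measured in 62 libraries of the hESC line WIBR3 and its organoids, in 31 groups of 2 taken from the labels. Per the submitters' processing notes, the tools were FastQC 0.11.9, Trim Galore 0.6.7, cutadapt 4.1, STAR 2.7.10a, featureCounts 2.0.1, DESeq2 1.36.0 and R 4.2.0, with GRCh38. Strandedness of the libraries is not given in the sources used here. The deposited table holds TPM as computed by the authors, 1000000 per library. The authors deposited, for each clone and cell type, a DESeq2 table, of which the log2 fold change and both p-values, raw and adjusted, were used. These were read as deposited, and no per-library counts were used. No 2 libraries were identical.

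Own fits used limma 3.58.1 in R 4.3.3 with a mean-variance trend on log2(TPM + 1), for genes that reached 1 TPM in 2 or more of a fit's libraries, with two-sided p-values adjusted by Benjamini-Hochberg over all genes tested and called under 0.05. The fits held 16 libraries of the PF-127 series, 10 CTR libraries, 6 cortical WT, 6 hepatic WT, 6 libraries per knockout cell type and 30 for the interaction. Each clone was its own group, so differences between clones did not enter the spread. Figures and tables used Python 3.11.15 with pandas 2.3.3. The procedure was tested on simulated data.

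The 10 genes and the other lists were chosen with earlier results of these data known. All 10 were named in every comparison. Of other lists, counts and up to 3 called genes with the largest change were eligible, besides NEAT1 and the 5 genes most like HMOX1. SQSTM1, ABCC1, HSPA1B and LHX1, whose symbols occur more than once, were left out of the list counts. Replicate numbers were not taken to pair libraries: the labels give no shared source, and in no set did every pair of groups have differences between replicates correlated above 0.1 (-0.099 to 0.093 in the PF-127 series). For the knockout and CTR libraries the check pooled 5 cell types and reached 0.378, so it cannot exclude pairing within a cell type. Alternatives tried were a filter at 5 TPM or none, a pseudocount of 0.1, size factors, TPM without mitochondrial mRNAs, a replicate block, only the 4 libraries compared, each clone alone and omission of each library. WT nephron and WT lung organoids entered no test. One marker gene, and the marker sum that holds it, are not reported here.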

Additional observations from a re-analysis of the deposited data

Results flagged for a closer look

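The change of HMOX1 with PF-127 differed between the 4 times of the hESC series by an interaction test over all genes (limma adjusted p = 0.0063), with log2 changes of 0.17 at 0 h, 0.01 at 1 h, -0.87 at 4 h and -0.25 at 24 h. The change of FTL with NEAT1 knockout differed between the 5 cell types by the same kind of test (limma adjusted p = 0.023). It was -0.26 in hESC, 0.11 in cortical, -0.41 in nephron, 0.03 in hepatic and 0.02 in lung organoids. The FTL call is lost with size factors (limma adjusted p = 0.14), with no filter (0.11) and in 6 of the 30 omissions of a library. Differences between clones did not enter the spread. The clones stood on opposite sides of CTR in cortical, hepatic and lung organoids.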

How the results depend on the processing

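Over the 32 comparisons, 87 calls of one of the 10 genes were made, and none reversed under any alternative. All 87 remained with a pseudocount of 0.1 and all 86 testable with a filter at 5 TPM. Of the 87, 13 were lost with size factors, 11 with no filter, 7 without mitochondrial mRNAs and 5 with the replicate block, 10 of 58 with only the 4 libraries compared, and 33 in at least 1 omission of a library. Same-numbered libraries did not deviate together throughout any set (correlations of -0.099 to 0.093 in the PF-127 series, -0.088 to 0.035 in CTR, -0.027 to 0.079 in cortical WT, -0.033 to 0.166 in hepatic WT and -0.117 to 0.378 in knockout and CTR libraries, where some pairs of groups did), and the block changed the number of called genes to 1 for 1 h against 0 h with PF-127, 4 for lung against hESC and for nephron against cortical, and 6 for hepatic against cortical organoids, and nowhere else. Size factors gave 6 for nephron organoids against hESC, 3 for nephron against cortical organoids and 0 for the knockout interaction. With no filter the number was 0 for 1 h against 0 h with PF-127, for the nephron knockout and for the knockout interaction, and a filter at 5 TPM gave 3 for hepatic Chip against PN96. Only the 4 libraries compared gave 0 for PF-127 at 4 h, 5 for nephron and 3 for lung organoids against hESC, 1 for hepatic against lung, 3 for lung against cortical, 1 for cortical Chip against PN96 and 2 for hepatic Chip against PN96. Clone 2 alone gave 0 in nephron organoids. Leaving out 1 library gave 0 to 1 for the PF-127 average and for 1 h against 0 h without PF-127, 0 to 2 for 1 h against 0 h with PF-127, 1 to 4 for nephron and 3 to 7 for lung organoids against hESC, 1 to 3 for hepatic against lung, 3 to 6 for nephron against cortical, 0 to 1 for cortical Chip, 4 to 8 for cortical PN96 against SPIN, 0 to 2 for hepatic Chip, 0 for the nephron knockout, 0 to 1 for the lung knockout and 0 to 2 for the knockout interaction. Why calls moved was not tested, beyond the fewer libraries or genes of some alternatives. TPM keeps no depth, so no limit from counting can be given, and with 2 libraries per group small changes of low genes such as OSGIN1 cannot be resolved.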

Other observations

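Some groups have no partner in a comparison. WT nephron organoids of day 7 had the lowest group means of GCLM, at 3.70 ± 0.244 TPM, and of FTL, at 1880 ± 150 TPM (SD, n = 2), with HMOX1 at 4.84 and 4.95 TPM and SRXN1 at 48.1 and 57.9 TPM. WT lung organoids of day 20 had HMOX1 at 22.7 and 12.9 TPM, FTL at 3740 and 3474 TPM, SLC7A11 at 41.1 and 33.6 TPM and the lowest group mean of FTH1, at 1007 ± 87.5 TPM (SD, n = 2). SLC7A11 was at 23.8 to 28.7 TPM in hESC of the PF-127 series at 0 h and at 103 and 103 TPM in CTR hESC, groups of separate experiments that were not tested against each other.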
